A study of Homo sapiens with 12 samples.

Results

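The replication-dependent histone genes are the genes whose GENCODE symbol is H1-1 to H1-6 or begins with H2AC, H2BC, H3C or H4C followed by a number. The rule found 83 genes among the 62700 of the GENCODE annotation (release 44, GRCh38), of which 70 were protein-coding and 13 were pseudogenes. They comprised 6 linker histone genes (H1), 22 H2A genes, 24 H2B genes, 15 H3 genes and 16 H4 genes. Chromosome 6 held 65 of them, in the cluster between positions 25723397 and 27893891, chromosome 1 held 16, and chromosomes 12 and 21 held 1 each.

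Replication-dependent histones package newly copied DNA, and their genes are transcribed mainly while a cell passes through S phase. Their messenger RNAs are unlike others: they are cut just downstream of a short stem-loop, which is bound by the stem-loop binding protein SLBP, and they normally end there without a poly-A tail. When replication stops, a short oligo(U) tail is added and the transcripts are degraded. Methods that prime on poly-A, as all 3 assays of this series do, therefore reach these transcripts only where a tail or an internal run of A is present, for example where a histone gene uses a polyadenylation site beyond the stem-loop.

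The series held 12 samples. HEK293T, a human embryonic kidney line carrying the SV40 large T antigen, was assayed as flow-sorted live single cells, as single-cell lysate and, in LAST-seq, as 15-pg portions of total RNA. LAST-seq joins a T7 promoter directly onto each RNA molecule, which is then amplified without prior reverse transcription. It had 2 libraries of cells, 1 of lysate and 1 of RNA. CEL-seq2 amplifies linearly after cDNA synthesis and had 2 libraries of cells and 1 of lysate, and SMART-seq V4, a full-length PCR method without molecular identifiers, had 1 set of cells and 2 of lysate. HEK293T libraries of LAST-seq and CEL-seq2 pooled 10 indexed wells. Replicates were labelled with different mixes of spike-in RNA. LAST-seq cells and SMART-seq V4 lysate had the A60 mix in the first replicate and the ERCC mix in the second. CEL-seq2 cells had both mixes in the first and ERCC in the second. Differences between such replicates cannot be told apart from the spike-in mix. The eHAP1 line, a haploid human line, was assayed by LAST-seq as sorted live haploid G1 cells, wild type (WT) and knocked out by Cas9 for SCC4, the cohesin loader subunit whose official symbol is MAU2. Each genotype had 2 batches with pools of 80 indexed cells, of which 148 WT and 153 SCC4 KO cells were in the tables. The knockout cells descended from clones grown from single cells. The paper also describes the haploid cells of its noise measurements as sorted from a clonally expanded population. On subcloning, the haploid cells were grown with 10-Deacetylbaccatin-III to keep them haploid, and they were stained with Hoechst for the sort. The paper gives neither step for HEK293T, and no HEK293T well was sorted by cell cycle phase. Line, compound, staining, G1 sort, sequencing depth and pool size therefore cannot be told apart in any comparison of the lines.

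Gene counts per HEK293T well ranged from 62782 to 195230 unique molecular identifiers (UMIs, each marking 1 captured molecule) and per eHAP1 cell from 18004 to 925612 UMIs, while SMART-seq V4 wells held 747001 to 818224 reads. Each of the 6 SMART-seq V4 wells deposited as single cells matched a well of the second lysate table to within sampling noise, and 3 pairs of wells within the first lysate table also matched, whereas the other 487 pairs were far apart. SMART-seq V4 values are therefore given as descriptions, with and without those wells, and the label of those 6 wells is uncertain. Well barcodes recurred within an assay, all 10 being shared between each pair of LAST-seq or CEL-seq2 libraries compared and 70 to 75 between eHAP1 batches, so they carried no information on shared cells. MAU2 was read at 4.43 and 4.12 UMIs per 100,000 in the WT batches and at 0.918 and 1.45 in the SCC4 KO batches. The kidney marker PAX2 was at or near 0 in HEK293T LAST-seq cells. Among markers of other cells, PTPRC, GATA1 and ALB had 0 UMIs in every eHAP1 batch, where a gene left unlisted is not a measured 0. COL1A1 had 27 and 54 UMIs in the WT batches and 77 and 190 in the SCC4 KO batches, and CD34 had 7 and 11 in the SCC4 KO batches.

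The stem-loop could be read in the reference sequence and is printed for the members on which the results turn, as 1 run of 26 bases per gene on its own strand, 5′ to 3′, with the 16-base stem-loop in capitals (GRCh38). It was searched for as a stem of 6 bases that begins with GG and is repeated inverted after a loop of 4 bases, the loop having T at its odd positions. Protein-coding members had 8 versions of it. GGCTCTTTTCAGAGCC occurred in 40 members, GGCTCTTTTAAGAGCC in 9 and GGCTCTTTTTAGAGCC in 1, while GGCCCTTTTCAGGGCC in 10 and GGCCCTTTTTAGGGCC in 4 were both limited to H4 genes. H2BC10, H3C6 and H4C13 each had a version of their own with C in the loop, GGCTCTTCTAAGAGCC, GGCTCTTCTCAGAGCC and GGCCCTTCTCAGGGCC. These 8 letter strings were collected from the last 100 bases of the members' own annotated transcripts, on their strand. That 66 of the 70 protein-coding members (94.3%) had 1 of them there is thus a description of the search. Other protein-coding genes were searched for these same strings only, not for the general rule. Of 19976 such genes 3 had one (0.015%), 2 of which were the H3 genes H3-4 and H3-7, so the 2 percentages are not a test. H2AC11, H2AC15 and H2BC12L had none of the 8 strings. The 405-base transcript of H4C3, the histone H4 gene with the most counts, ends 5 bases past the stem-loop. Those of H1-2, H1-3 and H1-4 end 4 or 5 bases past theirs, whereas the last 4 genes of the list are annotated with longer transcripts that pass the stem-loop.
H4C3 (chr6:26103933-26104337, plus strand): ccaaaGGCCCTTTTCAGGGCCgctca
H1-2 (chr6:26055740-26056470, minus strand): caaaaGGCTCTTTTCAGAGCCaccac
H1-3 (chr6:26234212-26234987, minus strand): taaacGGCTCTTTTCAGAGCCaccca
H1-4 (chr6:26156329-26157115, plus strand): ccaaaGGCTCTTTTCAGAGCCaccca
H2AC12 (chr6:27147106-27147562, plus strand): acaaaGGCTCTTTTCAGAGCCattct
H2AC8 (chr6:26216921-26217437, plus strand): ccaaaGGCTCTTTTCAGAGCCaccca
H2AC25 (chr1:228434777-228457873, minus strand): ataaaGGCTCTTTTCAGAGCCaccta
H2BC11 (chr6:27125897-27132795, minus strand): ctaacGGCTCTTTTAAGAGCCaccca
H2BC5 (chr6:26158122-26171349, plus strand): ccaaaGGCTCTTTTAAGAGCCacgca
H4C14 (chr1:149832657-149839767, plus strand): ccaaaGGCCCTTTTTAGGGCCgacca

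Among the 67 protein-coding members with a stem-loop within 150 bases past a stop codon, 50 had only transcripts that end 0 to 18 bases past it (median 5), and 17 had at least 1 annotated transcript reaching over 100 bases beyond. The 17 included H2AC25, H2BC5, H2BC11, H2BC21, H4C8, H4C14 and H4C15. The furthest ends of H2AC25, H2BC5, H2BC11 and H4C14 lay 22592, 12747, 6424 and 6720 bases past the stem-loop on the genome. H4C3 lies opposite H2BC4 on the other strand and its longest run of A is 7 bases, which 8 members reached or exceeded. Histone genes are near-copies of each other, and 22 of the 83 members shared over 50% of their 50-base words with another gene. H4C14 and H4C15 shared nearly all of theirs with each other, so how reads were split between them is uncertain, whereas H4C3 shared 0%. The pseudogene H3C9P shared 11.4%, mainly with H3-3A, a replication-independent H3 gene with an ordinary polyadenylated messenger RNA, so counts given to H3C9P may in part come from it. Whether counting used strand is not given in the sources used here.

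Of the 83 members, 65 had a count in at least 1 table and 18 had none. The number with a count was 20 and 27 in the LAST-seq cell libraries, 11 in LAST-seq lysate and 17 in LAST-seq RNA, against 37 and 41 in the CEL-seq2 cell libraries and 28 in CEL-seq2 lysate. All genes listed ran the same way, at 16090 and 16589 in the LAST-seq cell libraries against 23184 and 23016 in the CEL-seq2 ones. SMART-seq V4 cells had counts for 34 members and each lysate table for 51. Single eHAP1 cells had counts for 28 members in WT and 29 in SCC4 KO, none of them an H1 gene.

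The level of the members depended most on the assay. Their share of all gene UMIs, spike-ins left out, was 4.49 per 100,000 (64 UMIs, 95% exact Poisson interval 3.46 to 5.74) in the first LAST-seq cell library and 9.08 (137 UMIs, 7.62 to 10.7) in the second. LAST-seq lysate was at 6.14 (49 UMIs, 4.55 to 8.12) and LAST-seq RNA at 7.94 (88 UMIs, 6.37 to 9.78). In CEL-seq2 the share was 105 (1631 UMIs) and 151 (2195 UMIs) in the cell libraries and 180 (1519 UMIs) in lysate, so that no CEL-seq2 library overlapped a LAST-seq library. The ratio of the mean library shares, CEL-seq2 over LAST-seq cells, was 18.9 with UMIs and 5.28 with reads, for which only the first CEL-seq2 library was used.

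Single wells showed the same separation. LAST-seq cells ranged from 1.34 through a median of 4.45 to 7.92 per 100,000 in the first library and from 4.27 through 8.62 to 14.3 in the second. CEL-seq2 cells ranged from 22.1 through 61.9 to 421 and from 19.5 through 69.6 to 580, and CEL-seq2 lysate wells from 141 through 178 to 227. The lowest CEL-seq2 cell thus lay above the highest LAST-seq cell. SMART-seq V4, in reads per 100,000, ranged from 233 to 374 in the wells labelled single cells, from 47.1 to 142 in the first lysate table and from 113.6 to 374 in the second, or to 181 without the matching wells. Reads without molecular identifiers and UMIs are different units, so these were not compared by a test.

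**Figure D1:**
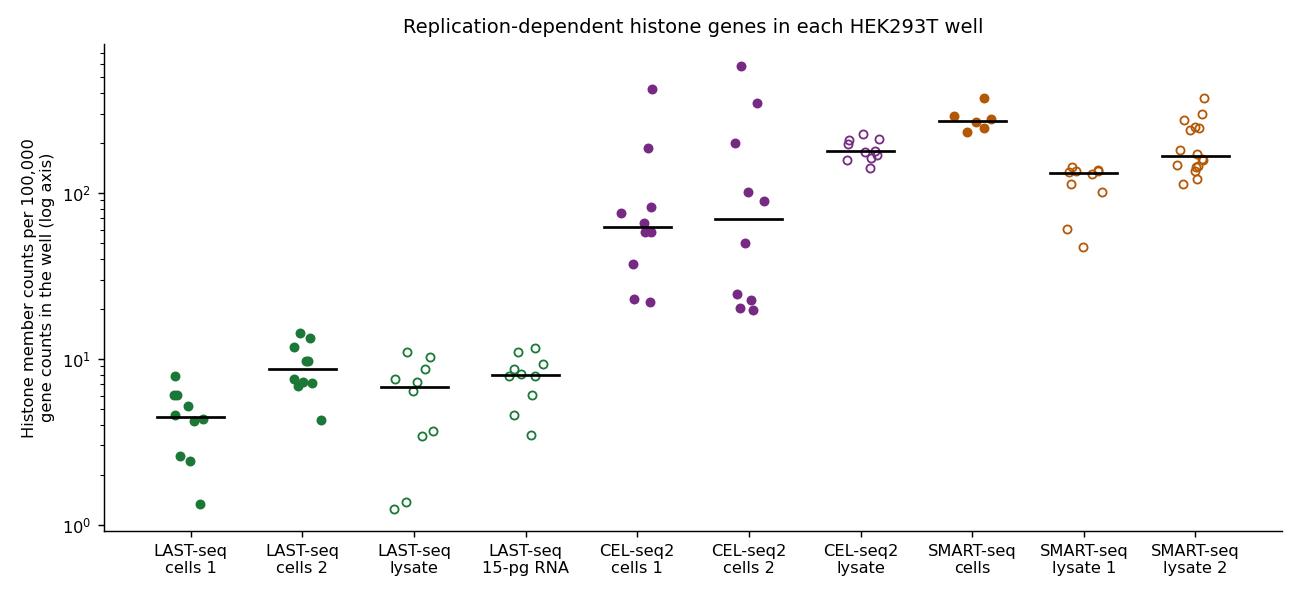
Counts of the 83 histone members per 100,000 gene counts (log axis) in each HEK293T well, by library; filled points are wells labelled single cells, open points lysate or RNA, and lines mark medians. UMIs are plotted for LAST-seq and CEL-seq2 and reads for SMART-seq V4. LAST-seq wells lie between 1.24 and 14.3, and CEL-seq2 wells between 19.5 and 580.

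Which members were counted also differed between assays. H4C3 supplied 64.6% and 70.7% of the members' UMIs in the CEL-seq2 cell libraries and 84.7% in CEL-seq2 lysate. It supplied 17.2% and 35.8% in the LAST-seq cell libraries, 30.6% in LAST-seq lysate and 13.6% in LAST-seq RNA. Members with an annotated transcript past the stem-loop supplied 34.4% and 32.1% of the LAST-seq cell counts but 9.20% and 5.06% of the CEL-seq2 cell counts. Their level on the scale of all genes was 1.55 and 2.92 UMIs per 100,000 in LAST-seq cells against 9.66 and 7.63 in CEL-seq2 cells. The 7.63 of the second CEL-seq2 library rested largely on 1 cell at 110.6, the others being at 2.679 or lower. CEL-seq2 lysate held 14 such UMIs among 844804 gene UMIs, LAST-seq lysate 11 among 797568 and LAST-seq RNA 48 among 1108196. A higher level in CEL-seq2 was thus not general for these members. Their lower percentage there follows from H4C3 and other members that end at the stem-loop. Without H4C3, CEL-seq2 cells remained above LAST-seq cells, with 37.2 and 44.3 per 100,000 against 3.72 and 5.83, a ratio of 8.52.

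**Figure D2:**
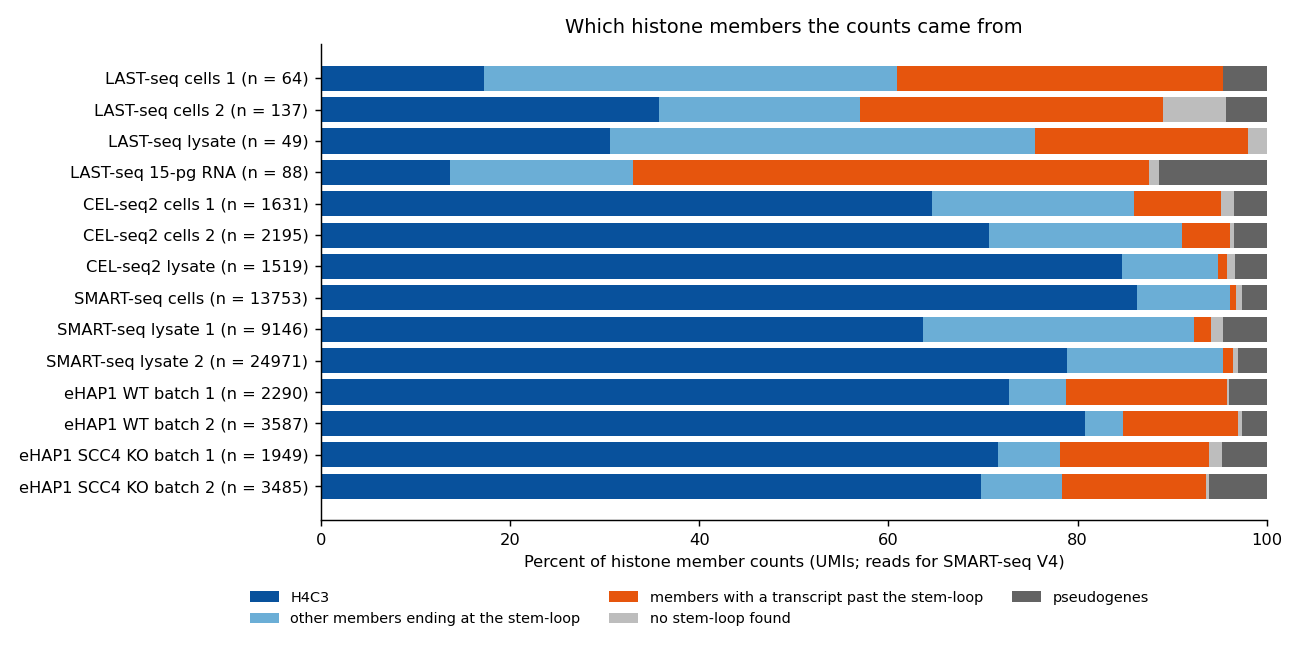
Percent of the histone members' counts in each library that came from H4C3, from other members whose transcripts end at the stem-loop, from members with a transcript over 100 bases past it, from members without a stem-loop and from pseudogenes; n is the number of counts. H4C3 makes up 64.6% to 84.7% of CEL-seq2 counts and 13.6% to 35.8% of HEK293T LAST-seq counts.

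By family, H4 led in every HEK293T cell library, with 72.1 and 108 UMIs per 100,000 in CEL-seq2 against 1.62 and 5.83 in LAST-seq. The linker histones followed in CEL-seq2, at 17.8 and 24.8 per 100,000, but were among the lowest in LAST-seq, at 0.14 and 0.53, and had no UMI in LAST-seq lysate. H2A stood at 5.54 and 6.05 in CEL-seq2 cells and 1.40 and 0.99 in LAST-seq cells, H2B at 5.73 and 6.60 against 0.77 and 1.52, and H3 at 3.93 and 5.43 against 0.56 and 0.20. Levels of different members can be compared per length only in the full-length SMART-seq V4 reads, where H4C3 stood at 5991 RPKM (reads scaled by exon length and library total) in the wells labelled single cells and at 1783 and 3876 in the lysate tables, the latter being 2528 without the matching wells. The next member in the cells was the pseudogene H3C9P at 165, and H1-4, H1-3 and H1-2 followed at 125, 86.1 and 49.2.

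CEL-seq2 was tested against LAST-seq in single HEK293T cells on the summed UMIs of the 2 libraries each, with edgeR's quasi-likelihood test over all genes. At an adjusted p of 0.05 26.2% of the 11261 genes tested were called, 14.9% higher in CEL-seq2 and 11.3% lower. Only 8 of the 83 members passed the filter on low counts, and 6 of these reached 10 UMIs only in CEL-seq2, so their difference was a condition of being tested and they are described by counts with no p-value. The other two, H4C3 and H2AC25, were the ones with 10 UMIs in both assays. Of the 8, 6 were called, all higher in CEL-seq2. H4C3 was called and H2AC25 was not. The other calls were H1-2, H1-3, H1-4, H2AC12 and H3C9P. These genes were tested only because they were high in CEL-seq2, so their calls and shared direction are not a result.

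H4C3 was counted at 0.77 and 3.25 UMIs per 100,000 in the LAST-seq cell libraries (11 and 49 UMIs) and at 67.9 and 107 in CEL-seq2 (1054 and 1551 UMIs). The groups were far apart, the log2 fold change was 5.15 ± 0.60 (SE, n = 2 libraries per assay) and edgeR's adjusted p was 0.000873. The ratio of the pooled counts was 42.3, with a counting interval of 32.8 to 55.6, and holds for UMIs only. In reads the gap was smaller. H4C3 had 232 of 6873881 and 1278 of 6763860 gene reads in the LAST-seq cell libraries. It had 2323 of 4210265 in the first CEL-seq2 cell library. The LAST-seq libraries also differed from each other, the second holding more H4C3 in UMIs and in reads.

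H1-2, a linker histone that binds DNA between nucleosomes, had 0 and 4 UMIs in LAST-seq cells and 176 and 234 in CEL-seq2 cells, a pooled ratio of 99.95 with a counting interval of 38.7 to 369. H1-3 had 1 and 0 against 58 and 46, a pooled ratio of 101 with a counting interval of 17.8 to 4044. H1-4 had 1 and 4 against 42 and 76, a pooled ratio of 23.0 with a counting interval of 9.59 to 72.2. Each of these linker genes had at most 4 UMIs in a LAST-seq cell library and at least 42 in a CEL-seq2 one. The core histone gene H2AC12 was at 0 in both LAST-seq cell libraries against 11 and 21 UMIs, at least 10.4-fold higher in CEL-seq2 when 3 counts over the LAST-seq group are taken as the floor. The pseudogene H3C9P had 2 and 1 against 45 and 71 UMIs, a ratio of 37.7 with a counting interval of 12.6 to 186. H3-3A, with which H3C9P shares sequence, moved the same way, from 1.05 and 1.52 UMIs per 100,000 in LAST-seq to 20.6 and 22.2 in CEL-seq2.

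H2AC25, an H2A gene with an annotated transcript far past its stem-loop, had 14 and 3 UMIs in LAST-seq cells and 24 and 21 in CEL-seq2 cells. The ranges did not overlap, but the LAST-seq libraries were far apart from each other, and the log2 fold change of 1.01 had an edgeR adjusted p of 0.357. H2AC20, at 5 and 1 against 16 and 19 UMIs, had a pooled ratio of 5.69 with a counting interval of 2.37 to 16.6. H4C15 ran the other way, at 0 and 26 UMIs in the LAST-seq libraries against 1 in each CEL-seq2 library, a pooled ratio of 0.0750 with a counting interval of 0.00863 to 0.300. Its 26 UMIs lay in 8 wells of the second LAST-seq library and came from 27 reads, 1.04 reads per UMI. It was too low to be tested, and its near-copy H4C14 had 1 and 2 UMIs in LAST-seq against 51 and 5 in CEL-seq2. Without the 5 CEL-seq2 cells of high histone share described later, H1-4 and H2AC12 were no longer called and the log2 fold change fell to 3.60 for H4C3, whose edgeR adjusted p was then 0.00275, to 4.38 for H1-2 and to 4.69 for H1-3, while that of H3C9P was 5.14. With a library left out H4C3 ranged from 4.47 to 6.45 on the log2 scale.

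**Figure D3:**
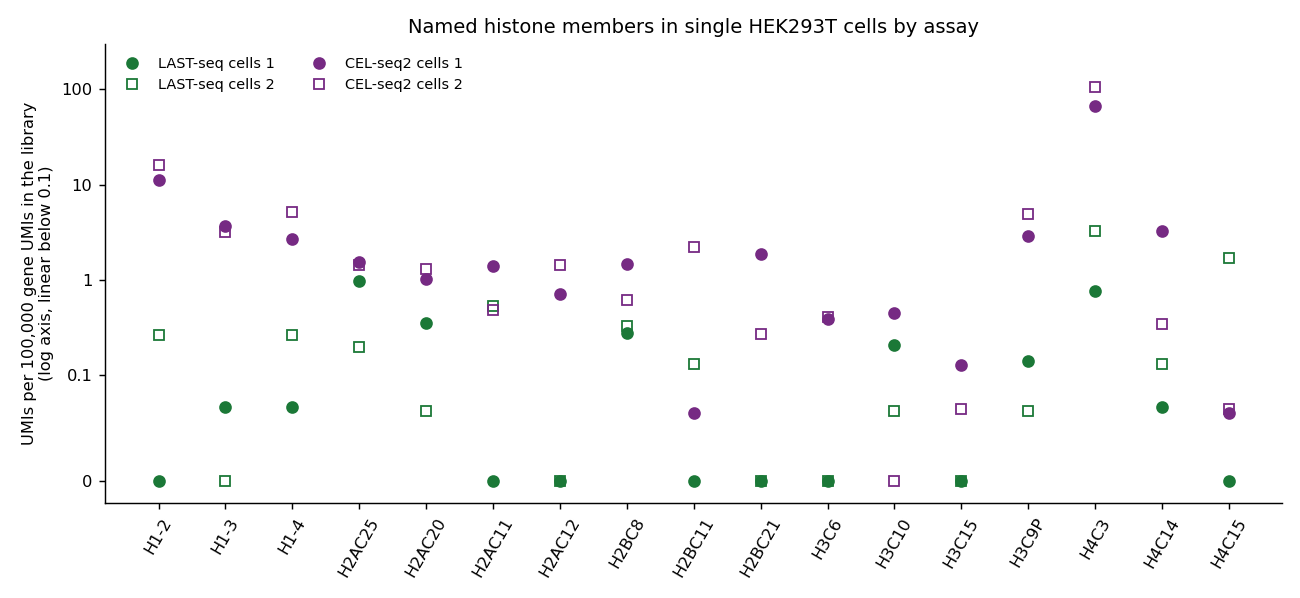
UMIs per 100,000 gene UMIs (log axis, linear below 0.1) of 17 named histone members in the 2 LAST-seq and 2 CEL-seq2 libraries of single HEK293T cells. H4C3 stands at 67.9 and 107 in CEL-seq2 and at 0.77 and 3.25 in LAST-seq, while H4C15 is higher only in the second LAST-seq library.

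Over both assays, 51 members had a count in single HEK293T cells, 28 of them in both, 18 only in CEL-seq2 and 5 only in LAST-seq. Wider detection in CEL-seq2 was not particular to the members, since its cell libraries listed 23184 and 23016 genes against 16090 and 16589 in LAST-seq. Pooled counts of the less abundant members mostly pointed the same way without a test. H2BC21 had 33 UMIs in CEL-seq2 and 0 in LAST-seq, at least 10.7-fold higher. H2BC11 had 33 against 2 and H4C14 had 56 against 3. The CEL-seq2 counts of these genes lay largely in few cells. In the second library 1 cell held all 32 H2BC11 UMIs. In the first library the highest and next cell held 22 and 18 of 51 H4C14 UMIs. The same cells held 17 and 5 of 29 H2BC21 UMIs. How far the pooled differences of these genes reflect the assay and how far those cells was not tested. By contrast H2BC26, H3C10 and H2BC12 had ratios of 1.34, 1.71 and 1.76, whose counting intervals all included 1.

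Genes outside the histone members give the context. Of 12 replication-independent histone genes, all tested, 1 was higher in CEL-seq2 (H3-3A, log2 3.74) and 2 were lower (H2AZ2, -0.99, and MACROH2A1, -0.88), with a median of 0.03 beside 0.06 over all genes tested. Of 13 genes of histone mRNA synthesis and 3′ end processing, 4 were higher, among them CASP8AP2 (2.96) and TUT7 (2.46), which encode a histone-locus-body protein and an RNA uridylyltransferase, and NPAT (1.53), the coactivator of histone transcription. LSM10, a subunit of the U7 processing particle, was lower by 1.37 on the log2 scale, as was CPSF3 by 1.24, and the list's median was 0.01. Of 37 S-phase genes tested 4 were higher and 4 lower, and of 22 G2 and mitosis genes 6 were higher and 1 lower (CDK1, -1.75).

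Reads behind each UMI also set H4C3 apart in LAST-seq. It had 232 reads for 11 UMIs in the first cell library and 1278 reads for 49 UMIs in the second, 21.1 and 26.1 reads per UMI. All genes together had 4.83 and 4.48, and among genes with at least 10 UMIs only 0.743% and 0.193% exceeded H4C3. The value of the first library rested on few molecules, since a single well held 176 of its 232 H4C3 reads and no well had over 4 H4C3 UMIs. The highest well of the second library held 382 of the 1278 reads. In the first CEL-seq2 cell library, the one whose reads were also deposited, H4C3 had 2.20 reads per UMI, all genes had 2.71, and 56.8% of genes exceeded it. In reads, the members' share was 7.49 and 23.6 per 100,000 in LAST-seq and 82.1 in CEL-seq2.

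Cells were compared with lysate, the other input that both assays were given. In CEL-seq2 the members were lower in cells, at 105 and 151 UMIs per 100,000, than in lysate at 180, and so was H4C3, at 67.9 and 107 against 152. Without H4C3 the direction turned, and cells were at 37.2 and 44.3 and lysate at 27.5. In LAST-seq, cells at 4.49 and 9.08 lay on both sides of lysate at 6.14 and of RNA at 7.94. In one edgeR fit over the 6 libraries with assay as a term, 0.153% of 11755 genes were called, 0.0255% higher in cells and 0.128% lower. Of 10 members tested 0 were called, 0 had an unadjusted p under 0.05, and DESeq2 called 0 with 2 under an unadjusted p of 0.05. On simulated data this edgeR fit recovered 3% of genes changed by 1 on the log2 scale and 37% of those changed by 2. Most changes of that size would thus be missed.

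H4C3 had a log2 fold change of -0.85 ± 0.45 for cells over lysate, with an edgeR adjusted p of 0.395, and H1-2 had 0.90 ± 0.59 with an edgeR adjusted p of 0.492. Leaving out the CEL-seq2 cells of high histone share turned H1-2 to -0.80. The interaction of assay and input, which asks whether cells and lysate differ unequally in the 2 assays, was called in 0.00741% of 13495 genes. Of 15 members tested edgeR and DESeq2 each called 0. In edgeR, H2BC8 and H2AC12 had an unadjusted p under 0.05, and H4C3 was at -1.005 ± 0.97 with an edgeR adjusted p of 0.846. Each assay had 1 lysate library, so the spread came from the cell libraries. None of the replication-independent histone, processing, S-phase or G2 and mitosis genes was called by edgeR in either test.

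The wells of CEL-seq2 cells were spread far beyond counting noise. A well was called high where its member share was at least 2 times the median of its library. In CEL-seq2, 5 of 20 cells (25%) were high: 2 of 10 in the first library (95% exact binomial interval 2.52% to 55.6%) and 3 of 10 in the second (6.67% to 65.3%). LAST-seq had 0 of 20 high cells, CEL-seq2 lysate 0 of 10 wells, and LAST-seq lysate and RNA 0 of 20, each 0 of 10 allowing up to 30.9%. SMART-seq V4 had 0 of 6 wells labelled cells, 0 of 10 wells of the first lysate table, in which 3 pairs of wells repeat each other, and 0 of 10 wells of the second without the matching wells. Among the matching wells 1 was high in the second table. In LAST-seq a well held 1 to 22 member UMIs, so counting noise alone spreads the shares there and a 2-fold excess was hard to see at this depth.

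H4C3 carried most of this spread. In the first CEL-seq2 library its UMIs per cell, in table order, were 96, 35, 36, 7, 10, 213, 559, 45, 30 and 23, and in the second 122, 49, 416, 730, 133, 9, 15, 45, 15 and 17. In lysate they were 129, 153, 113, 143, 115, 145, 132, 98, 136 and 123. A few cells thus held 10 times or more the UMIs of others, while lysate wells stayed within a narrow range. As an index of dispersion, in which 1 is counting noise, H4C3 had 261 and 313 in the cell libraries and 3.42 in lysate. These were the highest value among 11770 genes in the first library, rank 5 of 11229 in the second and rank 277 of 8310 in lysate, with gene medians of 1.89, 1.78 and 1.32. LAST-seq cells gave 1.35 in both libraries, where the gene median was 1.03.

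The high cells fell into 2 kinds by content. In the first library cell 7 held 676 member UMIs (421 per 100,000, 6.81 times the median), of which H4C3 gave 559, H1-2 72 and H2BC8 15, and cell 6 held 331 (187 per 100,000), of which H4C3 gave 213, H1-2 41 and H1-3 32. In the second library cell 4 held 894 (580 per 100,000, 8.33 times the median), with H4C3 at 730, H1-2 at 89 and H1-4 at 35, and cell 3 held 631 (348 per 100,000), with H4C3 at 416, H1-2 at 118 and H1-4 at 31. In these 4 cells H4C3 and the linker histones were high together, and both are genes whose transcripts end at the stem-loop. The summed share of 40 S-phase genes ranked these cells 3 and 2 of 10 in the first library, and cells 4 and 3 of the second library 2 and 1 of 10. G2 and mitosis genes ranked them 8 and 10, and 3 and 5.

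Cell 2 of the second library differed. It held 161 member UMIs (200 per 100,000, 2.88 times the median), of which H4C3 gave only 49. H2BC11 gave 32 and H2BC5 19, and neither had a UMI in another cell of that library, while H2AC25 gave 12, H2BC15 9, H4C9 8, and H2AC6 and H3C6 5 each. Members with an annotated transcript past the stem-loop were at 111 per 100,000 in this cell and at most 2.68 in the other 9. The cell ranked 1 of 10 for G2 and mitosis genes and 8 of 10 for S-phase genes, and had the fewest UMIs of its library, 80483. In the first library, cells 8 and 10 held H4C14 (22 and 18 UMIs) and H2BC21 (17 and 5), also members with such transcripts, and were not high.

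**Figure D4:**
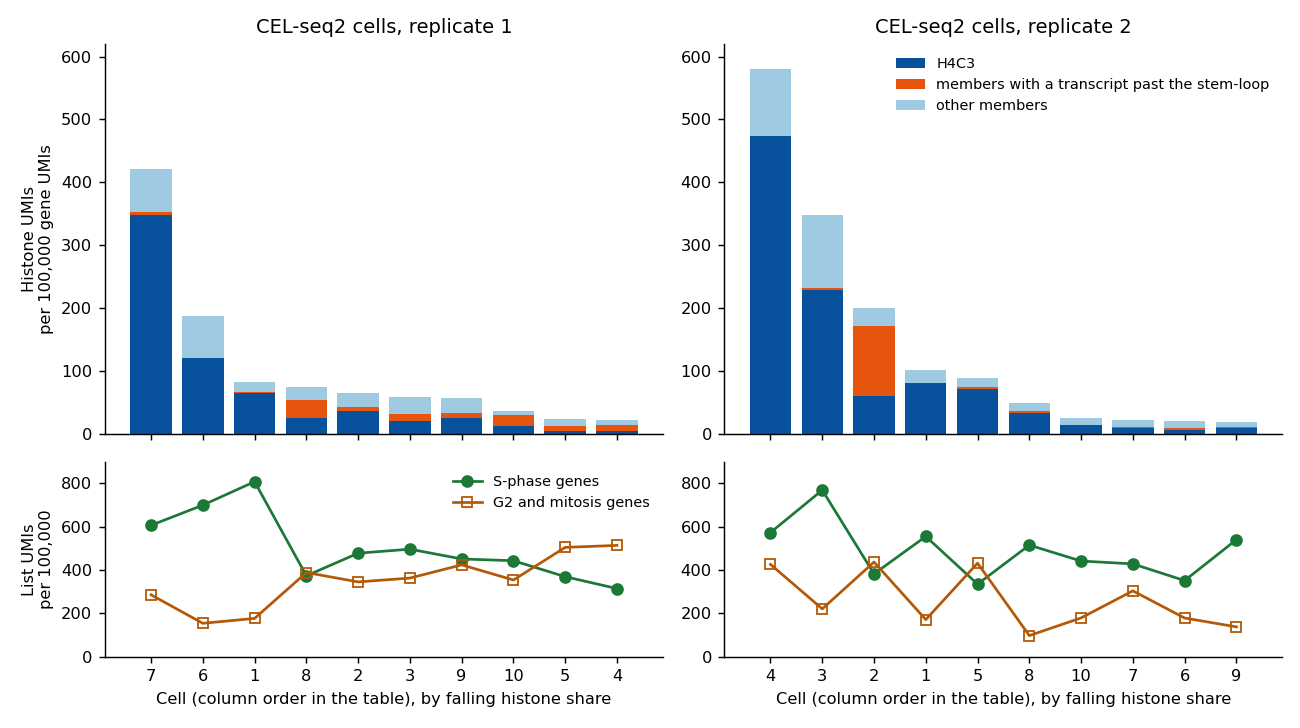
Top: histone UMIs per 100,000 gene UMIs in the 10 CEL-seq2 cells of each library, sorted by falling share and split into H4C3, members with a transcript past the stem-loop, and the rest; bottom: UMIs per 100,000 of the S-phase and the G2 and mitosis genes in the same cells. Cell 2 of replicate 2 has 111 per 100,000 from members with a transcript past the stem-loop; in the other high cells H4C3 supplies most UMIs.

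Across the 10 cells of a CEL-seq2 library the member share varied with the S-phase share with Pearson's r of 0.471 and 0.528 and Spearman's rho of 0.818 and 0.442, given as a description, since all points of a library share its amplification. With G2 and mitosis genes r was -0.488 in the first library and 0.521 in the second, where cell 2 and cell 4 were high in both. H4C3 and the other members varied together, with r of 0.769 and 0.632. Total UMIs were weakly related to the member share, with r of 0.0964 and 0.152. S-phase shares themselves ranged from 315 to 808 and from 335 to 769 per 100,000 in CEL-seq2 cells, from 386 to 514 and from 344 to 494 in LAST-seq cells and from 369 to 453 in CEL-seq2 lysate, so the LAST-seq cells also spanned less of that measure.

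In G1-sorted eHAP1 cells LAST-seq gave higher histone shares than in unsorted HEK293T cells. The members took 31.1 and 29.2 UMIs per 100,000 in the WT batches and 30.3 and 29.9 in the SCC4 KO batches, against 4.49 and 9.08 in HEK293T cells. H4C3 made up 72.8% and 80.7% of the member UMIs in WT and 71.6% and 69.8% in SCC4 KO. No H1 gene was listed in either eHAP1 table. Those tables list few genes seen in 1 batch only (2.86% in WT and 0.588% in SCC4 KO), so an unlisted gene is not a measured 0 and no upper limit is given for it.

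In edgeR's test of WT eHAP1 against HEK293T by LAST-seq, 33.6% of 13094 genes were called, 18.6% higher in eHAP1 and 15% lower. Of the 83 members 7 passed the filter, 5 of them with 10 UMIs in eHAP1 alone, and 2 were called, both higher in eHAP1. H4C3 stood at 22.6 and 23.6 UMIs per 100,000 (1667 and 2896 UMIs) against 0.77 and 3.25, a log2 fold change of 3.72 ± 0.41 with an edgeR adjusted p of 0.00161 and a pooled ratio of 11.4 with a counting interval of 8.80 to 14.9. The eHAP1 batches lay close together and far above either HEK293T library. H2AC25 stood at 2.78 and 2.00 against 0.98 and 0.20, a log2 fold change of 2.22 ± 0.61 with an edgeR adjusted p of 0.0339, which was lost when total UMIs replaced TMM scaling (adjusted p 0.0688) and without the first WT batch (0.0695). Without the first LAST-seq cell library the H2AC25 value was 3.77 and without the second 1.395.

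H3C9P (70 and 36 UMIs against 2 and 1) had a pooled ratio of 5.27 with a counting interval of 1.76 to 26.0, and H2BC8 (84 and 67 against 4 and 5) one of 2.50 with an interval of 1.28 to 5.58. H4C8 had 71 and 26 UMIs in WT eHAP1 and 0 in HEK293T cells, at least 4.82-fold higher, without a test. H3-3A was again higher beside H3C9P, by 3.51 on the log2 scale. Among the 12 replication-independent genes 3 were higher (H3-3A, H1-10 and H2AX) and 3 lower, a count in which genes that a table does not list were entered as 0. Of 13 processing genes NPAT was higher by 1.30 and LSM11, LSM10 and CPSF2 were lower by 1.36, 1.27 and 1.01 on the log2 scale. Of 37 S-phase genes 8 were higher, among them WDR76 (1.80), and 8 lower, among them GMNN (-1.14). Of 22 G2 and mitosis genes 2 were higher and 5 lower, led by UBE2C (-6.40), TTK (-1.26) and TPX2 (-1.23).

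SCC4 KO was then set against WT, with 2 batches each. edgeR called 29.5% of 15057 genes, 13.3% higher in the knockout and 16.2% lower. Of 19 members tested 2 were called, H2AC8 and H2BC21, both higher in SCC4 KO. Both passed the filter through the SCC4 KO batches alone, as did 1 further member, so they had to differ to be tested and are given by their counts. The other 16 had at least 10 UMIs in a batch of each genotype. H2AC8, an H2A gene ending at its stem-loop, had 7 and 66 UMIs in the SCC4 KO batches and 1 and 1 in WT, a pooled ratio of 39.7 with a counting interval of 10.6 to 334. H2BC21 had 17 and 40 against 2 and 7, a pooled ratio of 6.88 with a counting interval of 3.38 to 15.8. In both genes the groups did not overlap, but the knockout batches differed by more than the difference in their depth for H2AC8, and both calls were lost without either WT batch and without the second SCC4 KO batch, that of H2BC21 also without the first and with no filter on low counts.

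H4C3 was at 22.6 and 23.6 UMIs per 100,000 in WT and at 21.7 and 20.9 in SCC4 KO. The difference was small, with a log2 fold change of -0.19 ± 0.07, an edgeR adjusted p of 0.0559 and a pooled ratio of 0.912 with a counting interval of 0.873 to 0.952. It passed the threshold with DESeq2 (adjusted p 0.0276) and with total UMIs as scaling (0.0181). H4C8, with 71 and 26 UMIs in WT against 1 and 18 in SCC4 KO, came to -2.68 with an edgeR adjusted p of 0.0738, and H3C9P to 1.18 with 0.102. With the batch number as a replicate block both were called as well, at edgeR adjusted p of 0.0140 and 0.00584. Whether batches of the same number belong together is not known. H4C14 had 7 and 107 UMIs against 9 and 22, and H2AC25 had 195 and 280 against 205 and 246, a log2 fold change of 0.12 with an edgeR adjusted p of 0.668.

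Of the other histone and cell cycle genes, called changes between the genotypes went in both directions. Among 11 replication-independent genes tested H3-3B was higher (0.30) and 4 were lower, led by MACROH2A1 (-0.65) and H2AX (-0.36). Among 13 processing genes 5 were higher, including LSM11 (0.86), CPSF2 (0.66) and the stem-loop binding protein gene SLBP (0.30), and CSTF2 was lower (-1.002), with a list median of 0.24. S-phase genes had 7 higher and 11 lower of 37, and G2 and mitosis genes 5 higher and 7 lower of 21.

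Single eHAP1 cells were even in histone share. No cell of 301 reached 5 times the median of its batch, nor 3 times. Batch medians were 31.6 and 27.0 per 100,000 in WT and 30.1 and 29.4 in SCC4 KO, and 72 of 73, 74 of 75, 77 of 77 and 76 of 76 cells lay within 2-fold of them. H4C3 had at least 1 UMI in every cell. The highest cell, in the second WT batch, held 119 member UMIs (74.6 per 100,000, 2.77 times the median), of which H4C3 gave 108, and ranked 9 of 75 for S-phase genes. The next cell of that batch was at 46.7.

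H4C3 had a dispersion index of 2.08 and 3.64 in the WT batches and 1.22 and 1.73 in the SCC4 KO batches, against 261 and 313 in CEL-seq2 HEK293T cells. It ranked 322 of 8509 genes in the first WT batch and 76 of 9690 in the second, and 4289 of 7702 and 1088 of 10002 in the SCC4 KO batches. Its spread was thus above the gene median in 3 batches and below it in the first SCC4 KO batch. H2AC25 had a UMI in 90.9% and 92.1% of SCC4 KO cells, and H4C14 in 9.09% of cells of the first and 86.8% of the second SCC4 KO batch, a batch difference as large as any between genotypes for that gene.

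**Figure D5:**
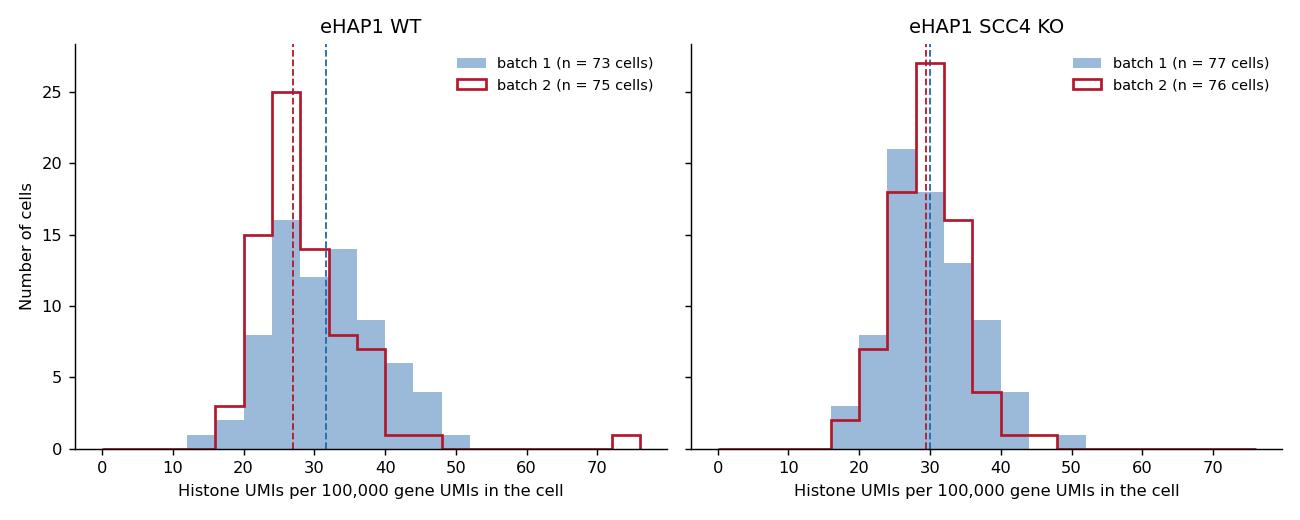
Number of eHAP1 cells by histone UMIs per 100,000 gene UMIs, in WT (left) and SCC4 KO (right), for batch 1 (filled) and batch 2 (outline), with dashed lines at the batch medians. Medians lie between 27.0 and 31.6, and a single WT cell stands apart at 74.6.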

How the data were processed

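Counts of UMIs or reads per gene and well were deposited by the authors, who aligned to GRCh38 with an earlier GENCODE release than the one used here for positions, length and sequence. Reads were demultiplexed with bcl2fastq 2.20, per the submitters' processing notes. The paper applied ComBat-seq to remove batch effects from the eHAP1 data before its burst analysis. Whether the deposited eHAP1 counts had been corrected between batches is not given in the sources used here. Groups came from the labels. Replicates were numbered in accession order, eHAP1 batches as the tables name them, and nothing says that they were separate cultures, so p-values measure only the spread between these samples.

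Spike-ins (0.0816% to 4.92% of counts) were left out. Wells were summed per library or batch and tested with edgeR 4.0.16 (quasi-likelihood, TMM, filterByExpr, Benjamini-Hochberg over all genes, FDR 0.05) in R 4.3.3. The edgeR comparisons, the interaction apart, were tested on simulated data. Of genes changed by 1 on the log2 scale 3% to 14% were recovered, and of genes changed by 2, 37% to 86%. Recovery was lowest for cells against lysate and highest for SCC4 KO against WT. Genes absent from a table were entered as 0. The stem-loop search first required TT at the start of the loop and was widened after its matches were seen, which added H2BC10, H3C6 and H4C13. Shares per 100,000 gene counts have exact Poisson intervals, ratios and percentages exact binomial ones, at 95%, and all cover counting error only. A count of 0 was set to 3 counts for a lower bound. Wells were sorted singly and no doublet caller was run. Alternatives were DESeq2 1.42.0, total UMIs, no filter, each library left out, a batch block, other thresholds, thinning to 60000 UMIs, and, chosen after seeing the data, leaving out H4C3, high wells, matching SMART-seq V4 wells or genes unlisted in 1 table.

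The members, lists and rules were chosen with earlier results of these data known. Named were the 3 protein-coding members per family with most counts, the 5 called members of largest change per direction and comparison, the leading member of each described well, and up to 4 called genes per list; others named were chosen after their values were seen, and some genes that the rule picks are not reported here. Differences between eHAP1 batches in WT and SCC4 KO had a correlation of 0.015 over 13015 genes, which gave no sign that batch numbers pair the samples. A batch correction before deposit could also remove such a correlation, so the value cannot show that the batches were unpaired.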

Additional observations from a re-analysis of the deposited data

Results flagged for a closer look

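In 40 sets of well values, 5 had a well far from the others by Dixon's criterion. Its nominal rate of about 1 in 20 cannot be set beside the 5, since sets of a library overlap, the members including H4C3. In the first CEL-seq2 cell library, cell 7 stood apart for H4C3 at 348.4 UMIs per 100,000, the next cell being at 120.6, and for all members at 421.3, the next being at 187.4. In the second, cell 4 stood apart for H4C3 at 473.2, the next being at 229.4. In the same library cell 2 stood apart for members with a transcript over 100 bases past the stem-loop, at 110.6 against at most 2.679 in the others. In CEL-seq2 lysate, well 2 was lowest for the members without H4C3, at 16.25 against 26.02 for the next, and was the deepest well of its library with 123088 UMIs. The part of cell cycle phase or of well depth in these values was not tested.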

How the results depend on the processing

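Of the alternatives that were run, all left 0 members called for cells against lysate and for the interaction of assay and input. The members called between LAST-seq and CEL-seq2 were the same 6 with DESeq2, 11 with no filter, and 5 to 7 when a library was left out, H2AC12 being lost without either LAST-seq library and without the second CEL-seq2 library. All of the main 6 but H4C3 were tested only because they were high in CEL-seq2, so keeping their calls is no separate support. For eHAP1 WT against HEK293T the 2 calls became 1 with total UMIs (H2AC25 lost) and 9 with no filter. Those 9 included H1-2, H1-4, H4C12 and H4C15, which are unlisted in eHAP1 WT and were entered as 0, not measured as 0. Without the first WT batch H2AC25 was lost and H4C15, again entered as 0, was gained. For SCC4 KO against WT the 2 calls became 4 with DESeq2 and 6 with no filter (H2BC21 lost). Neither of the 2 held through every removal of a batch. With the batch number as a replicate block there were 4 calls, H3C9P and H4C8 being added, but the batches are known to share only a number.

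For single genes the 92 values under other settings and the 88 with a library or batch left out mostly kept direction and side of the threshold (78 and 69). The sign turned for H1-2 in cells against lysate without the high CEL-seq2 wells (-0.80), for the H4C3 interaction with a library left out (-1.66 to 0.29), and in SCC4 KO against WT with a batch left out for H2AC25 (-0.050 to 0.35) and H4C14 (-0.49 to 2.51). The member ratio of CEL-seq2 to LAST-seq cells, 18.9, was 8.52 without H4C3, 5.28 in reads and 14.1 to 28.5 with a library left out. Cells over lysate turned in CEL-seq2 from 0.712 to 1.48 and in SMART-seq V4 from 1.80 to 0.923 without H4C3, and in LAST-seq from 1.10 to 0.869 without members of shared sequence and to 0.732 without the second cell library. High SMART-seq V4 lysate wells, repeat wells counted, went from 3.85% to 0% at 3 times the median, and without H4C3, and were 0% to 6.25% with a lysate table left out. Other causes of these changes were not tested. LAST-seq HEK293T cells held 2 to 22 member UMIs each, which limits what could be seen in them.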
